A study of Mus musculus with 6 samples.

Results

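The core proteins of the spliceosome and some related LSm proteins are described here. The core comprises the Sm and LSm rings, the proteins of the U1, U2, U4, U5, U6 and U11/U12 small nuclear ribonucleoproteins (snRNPs), the splicing factor 3 complexes SF3a and SF3b, the U2 auxiliary factors and the PRPF proteins. The same symbols bring in 5 genes of the U7 snRNP and other LSm proteins, which lie outside the core spliceosome. For short, all are called spliceosome genes. Genes were taken by symbol, beginning Snrp, Snrnp, Sf3a, Sf3b, Lsm, Prpf or U2af, and 2 symbols ending in -ps were left out. This gave 58 of the 54309 genes of the table. The symbol Snrpert, annotated as a processed pseudogene, was listed at 0 in all 6 libraries, and the other 57 averaged 1 TPM or more and were tested.

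The libraries came from lumbar (L4 to L6) dorsal root ganglia, DRG, which hold the cell bodies of sensory neurons, of male C57bl/6 mice, 8 to 10 weeks old. In the AAV-Leptin-GFP group (3 libraries) an adeno-associated virus carrying leptin and GFP, and in the AAV-GFP group (3 libraries) one carrying GFP, had been given into both sciatic nerves 4 weeks before the injury. Mice of both groups had a dorsal column axotomy, an injury to the spinal branch of the sensory axons, and tissue was taken 24 hours later and enriched for neurons, so neither group is uninjured or free of virus. The serotype and promoter of the viruses, and whether a library is 1 animal or a pool, are not given in the sources used here, so p-values describe the spread among libraries, which may be partly technical.

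Nuclear pre-mRNA splicing removes introns in steps. The U1 snRNP pairs with the 5′ splice site, U2AF and the U2 snRNP with its SF3 proteins recognise the branch point and the 3′ splice site, and the U4/U6.U5 tri-snRNP then joins so that the catalytic core can form. Most snRNAs carry a ring of Sm proteins, U6 carries a ring of LSm proteins, and a related cytoplasmic LSm ring acts in mRNA decay. Several splicing factor genes are known to make transcripts that keep an intron or include an exon with a stop codon, which are held in the nucleus or degraded, and this lowers the amount of protein made.

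The values are TPM, a share of the library corrected for transcript length, summed over the transcripts of a gene unless a transcript is named. Fold changes are differences of mean log2(TPM + 1), AAV-Leptin-GFP minus AAV-GFP, and a gene was called at a limma adjusted p under 0.05 over all genes tested. Read depth is unknown. Library pairs correlated across genes at 0.978 to 0.981 within AAV-Leptin-GFP, 0.982 to 0.984 within AAV-GFP and 0.974 to 0.982 between the groups (Pearson, log2 scale). Transcripts above 0 numbered 64423, 64087 and 61474 with AAV-Leptin-GFP and 60572, 55476 and 55954 with AAV-GFP. The 12 sensory neuron markers summed to between 26707 and 27230 TPM in AAV-Leptin-GFP and between 27793 and 29067 TPM in AAV-GFP libraries, with none at 0. Satellite glia markers summed to 7626 to 8324 TPM with AAV-Leptin-GFP and 8456 to 9630 TPM with AAV-GFP, and Schwann cell markers to 841 to 919 TPM with AAV-Leptin-GFP and 956 to 988 TPM with AAV-GFP. These 3 sums were lower in each AAV-Leptin-GFP library than in any AAV-GFP library, and 1 gene of these lists was called, Egr2, which was higher (log2 fold change 1.29, limma adjusted p = 0.0155). Macrophage markers, at 32.1 to 37.1 TPM with AAV-Leptin-GFP and 29.9 to 51.1 TPM with AAV-GFP, and the sums of endothelial and fibroblast markers overlapped between the groups. Erythroid markers summed to 239 to 1724 TPM with AAV-Leptin-GFP and 170 to 256 TPM with AAV-GFP, and all 5 lay above 0 (median log2 fold change 1.44, 2 at an unadjusted p under 0.05 and none called). AAV-Leptin-GFP replicate 3 stood apart in them, with 809 TPM of the globin gene Hbb-bs, beside 100.04 and 158 TPM in the other AAV-Leptin-GFP libraries and 115, 72.1 and 76.5 TPM in AAV-GFP libraries. The part of these sums in the results was not tested.

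The summed level of the spliceosome genes was nearly equal in the groups. Their TPM summed to 3928 ± 61.6 in AAV-Leptin-GFP libraries and 3930 ± 50.5 in AAV-GFP libraries (SD, n = 3 each). Beneath that equal sum, 2 of the 57 genes rose, Snrnp70 and Prpf40b, and 1 fell, Snrpf, while 1.54% of all 15108 tested genes were called higher and 0.0662% lower. At an unadjusted p under 0.05, 8 of 57 were higher and 6 lower (14.0% and 10.5%), beside 11.3% and 8.19% of all genes, so the share of spliceosome genes that changed was near that of the table. The libraries of the 2 groups did not overlap for 9 genes that were higher and 9 that were lower, beside 13.3% and 11.9% of all genes. In all, 29 of the 57 lay above 0, beside 49.9% of all genes. The median log2 fold change was 0.0071 over the 57 genes and -0.00016 over all genes. In these bulk libraries, fewer cells of a type and less RNA per cell cannot be told apart.

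**Figure D1:**
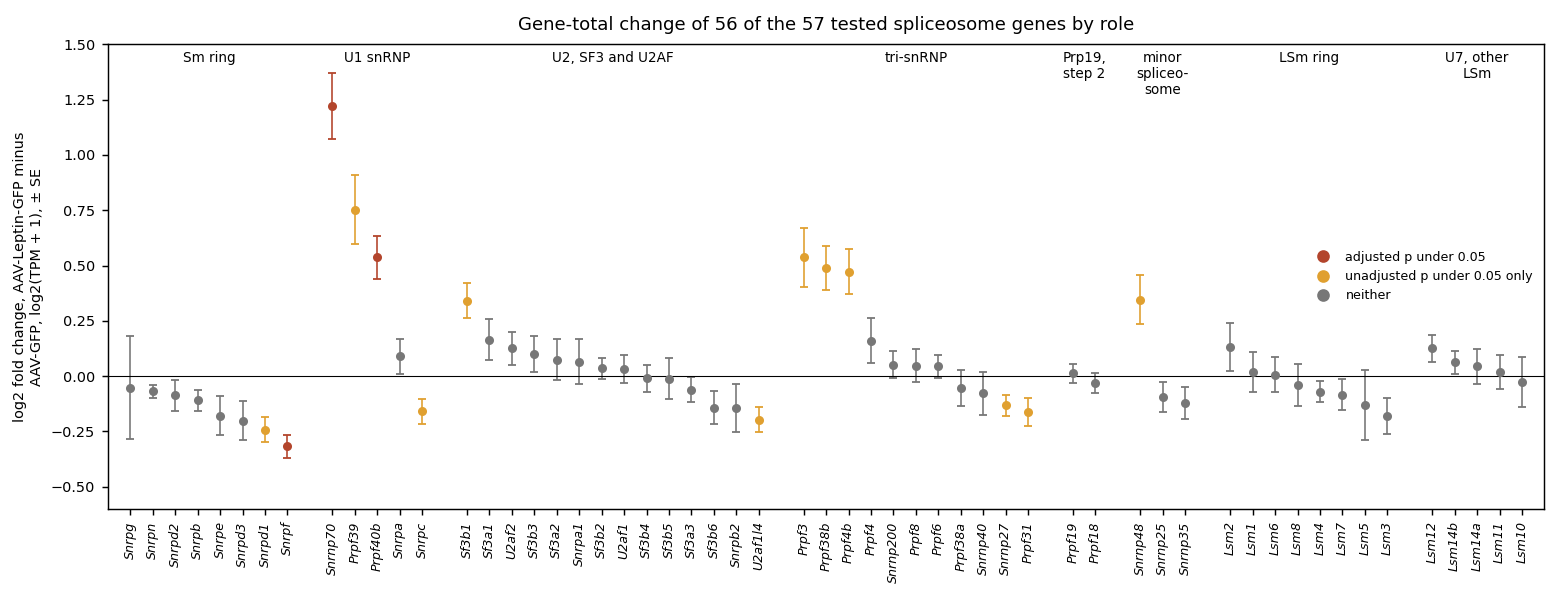
Log2 fold change (AAV-Leptin-GFP minus AAV-GFP, on log2(TPM + 1)) with its standard error for 56 of the 57 tested genes, grouped by role along the x axis; colours mark the adjusted and unadjusted limma p. Snrnp70 stands highest at 1.22, the 8 Sm ring genes all lie below 0 (7 of 8 under quantile normalization), and Snrpf is lowest at -0.32.

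Among the U1 proteins, which recognise the 5′ splice site, 2 of 6 were called higher and none lower, beside 1.54% and 0.0662% of all genes. With coding transcripts only, none was called and 3 of 6 were below 0, with a median log2 fold change of 0.12. Snrnp70 encodes U1-70K, the protein that binds the first stem-loop of U1 snRNA and contacts SR proteins (chromosome 7, 45376453 to 45395742 on GRCm38, minus strand). It had 160, 169 and 131 TPM in AAV-Leptin-GFP libraries, against 80.6, 55.6 and 61.0 TPM in AAV-GFP libraries. Every AAV-Leptin-GFP library lay above every AAV-GFP library, with means of 153 ± 20.1 TPM with AAV-Leptin-GFP and 65.7 ± 13.2 TPM with AAV-GFP (SD, n = 3 each; log2 fold change 1.22, SE 0.149, limma adjusted p = 0.0209). The call held without AAV-GFP replicate 1 (adjusted p = 0.00649) and was lost without AAV-GFP replicate 2 (0.107) or 3 (0.131) and without AAV-Leptin-GFP replicate 1 (0.113), 2 (0.149) or 3 (0.0603), where the log2 fold change was 1.11 to 1.33.

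Prpf40b, a WW-domain protein related to the yeast U1 protein Prp40, had 37.9, 44.2 and 39.7 TPM in AAV-Leptin-GFP libraries and 30.9, 24.4 and 27.9 TPM in AAV-GFP libraries. The groups did not overlap (log2 fold change 0.54, SE 0.0975, limma adjusted p = 0.0495). This value lay just inside the threshold. It was 0.0314 without AAV-GFP replicate 1 and between 0.122 and 0.195 without any other single library. Prpf39, which binds U1 and helps it engage weak 5′ splice sites, had 19.8, 18.9 and 15.0 TPM with AAV-Leptin-GFP and 12.7, 9.48 and 8.60 TPM with AAV-GFP. Its groups did not overlap either, but it missed the threshold (log2 fold change 0.75, limma adjusted p = 0.0648), which it passed without AAV-GFP replicate 1 (0.0281).

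The other U1 proteins did not pass. Snrpc, the zinc-finger protein of the U1 snRNP that stabilises the pairing of U1 with the 5′ splice site, had 81.4, 71.6 and 75.2 TPM in AAV-Leptin-GFP libraries and 86.1, 83.5 and 85.0 TPM in AAV-GFP libraries (log2 fold change -0.16, limma adjusted p = 0.190). Snrpa, which binds the second stem-loop of U1 snRNA, had a log2 fold change of 0.09 with overlapping groups. Within U1, then, Snrnp70 and Snrpc had fold changes of opposite sign.

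**Figure D2:**
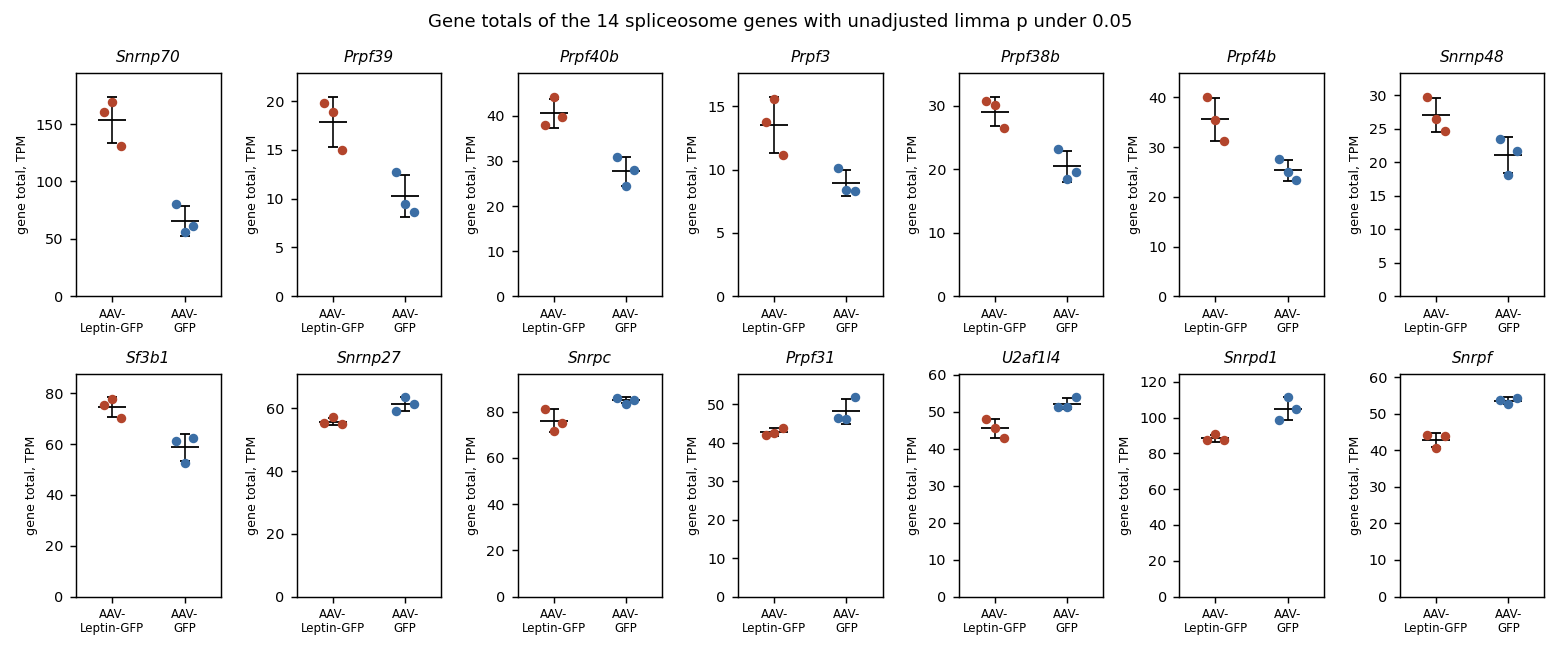
Gene totals in TPM (y axis, from 0) per library for the 14 genes with an unadjusted limma p under 0.05, AAV-Leptin-GFP libraries left and AAV-GFP libraries right in each panel; points are libraries, bars the mean ± SD (n = 3). Snrnp70 shows the widest separation, 131 to 169 TPM with AAV-Leptin-GFP against 55.6 to 80.6 TPM with AAV-GFP. The other panels differ less, with log2 fold changes from 0.75 for Prpf39 to -0.32 for Snrpf, the nearest to 0 being -0.13 for Snrnp27.

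The 8 genes of the Sm ring, which encircles the snRNA of every spliceosomal snRNP except U6, were all below 0, beside 50.1% of all tested genes, but 7 of 8 were under quantile normalization, where Snrpn turned. Their median log2 fold change was -0.14 and their range -0.32 to -0.05. Of the 8, 1 was called lower, beside 0.0662% of all genes. Snrpf, the F subunit of the ring (chromosome 10, 93583029 to 93589706, minus strand), had 44.1, 40.6 and 43.8 TPM in AAV-Leptin-GFP libraries and 53.8, 52.6 and 54.3 TPM in AAV-GFP libraries. The groups lay clearly apart and each was tight, with means of 42.8 ± 1.95 TPM in AAV-Leptin-GFP and 53.6 ± 0.865 TPM in AAV-GFP libraries (SD, n = 3 each; log2 fold change -0.32, SE 0.0535, limma adjusted p = 0.0405). The adjusted p was 0.0666, 0.154 and 0.178 without replicates 1, 2 and 3 of AAV-GFP, and 0.123, 0.163 and 0.0850 without those of AAV-Leptin-GFP. The call was thus lost in each case.

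Snrpd1, the D1 subunit that carries methylated arginines bound by the SMN complex during assembly, had 87.2, 90.6 and 87.6 TPM with AAV-Leptin-GFP and 98.5, 111 and 105 TPM with AAV-GFP. The groups did not overlap and the gene missed the threshold (log2 fold change -0.24, limma adjusted p = 0.0776). Snrpn, the neuronal form of the B subunit expressed from an imprinted locus, was the most abundant spliceosome gene in every library, with 1132, 1124 and 1117 TPM in AAV-Leptin-GFP and 1156, 1185 and 1199 TPM in AAV-GFP libraries. The difference was small (log2 fold change -0.07, limma adjusted p = 0.270), and under quantile normalization its sign turned, the only one of the 8 to do so under the scalings tried. The B subunit gene Snrpb, with 85.2 to 92.6 TPM in AAV-Leptin-GFP libraries and 94.5 to 98.5 TPM in AAV-GFP libraries, and Snrpd2, Snrpd3, Snrpe and Snrpg made up the rest, none of them past the threshold. Snrpg varied most within its groups, from 26.3 to 41.9 TPM with AAV-Leptin-GFP and from 24.7 to 42.5 TPM with AAV-GFP, and it turned above 0 when replicate 2 of either group, or replicate 3 of AAV-Leptin-GFP, was left out. Reads shared between Snrpb and Snrpn, between Snrpn and the overlapping Snurf, or with processed pseudogenes of the short Sm genes are divided by Salmon, so these values are uncertain.

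Of the 14 genes of the U2 snRNP, SF3 and U2AF, none was called and 6 were below 0, with a median log2 fold change of 0.03. Without AAV-GFP replicate 2, 8 of 14 were below 0 with a median of -0.01, and with coding transcripts only, 10 of 14 with a median of -0.04. Sf3b1, the largest SF3b subunit, which clamps the branch point helix, had the smallest p, with 75.6, 77.8 and 70.5 TPM in AAV-Leptin-GFP libraries and 61.3, 52.7 and 62.5 TPM in AAV-GFP libraries. Its groups did not overlap (log2 fold change 0.34, SE 0.0770, limma adjusted p = 0.0771). U2af1l4, a paralog of the small U2AF subunit that reads the AG of the 3′ splice site, had 47.9, 45.5 and 42.9 TPM with AAV-Leptin-GFP and 51.4, 51.4 and 53.8 TPM with AAV-GFP (log2 fold change -0.20, limma adjusted p = 0.130). The gene totals of the other SF3 genes were nearer to 0, between -0.14 for Sf3b6, the branch point protein p14, and 0.17 for Sf3a1. The coding transcripts of Sf3b6 averaged 41.1 TPM with AAV-Leptin-GFP and 50.9 TPM with AAV-GFP, without overlap, and were not called (log2 fold change -0.30, limma adjusted p = 0.148). Those of Sf3a1 were at 0.13.

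In the U4/U6.U5 tri-snRNP class none of 11 genes was called, and the median was 0.05. At an unadjusted limma p under 0.05, 3 were higher and 2 lower, beside 11.3% and 8.19% of all genes. Prpf38b, a protein with the PRP38 domain, had 30.7, 30.1 and 26.5 TPM in AAV-Leptin-GFP and 23.3, 18.5 and 19.6 TPM in AAV-GFP libraries (log2 fold change 0.49, limma adjusted p = 0.0630). Prpf4b, the kinase that phosphorylates tri-snRNP proteins, had 40.0, 35.4 and 31.3 TPM with AAV-Leptin-GFP and 27.6, 24.9 and 23.4 TPM with AAV-GFP (0.47, limma adjusted p = 0.0715). Prpf3, a scaffold of the U4/U6 snRNP, had 13.8, 15.6 and 11.2 TPM with AAV-Leptin-GFP and 10.1, 8.40 and 8.35 TPM with AAV-GFP (0.54, limma adjusted p = 0.0927). For each of these 3 the lowest AAV-Leptin-GFP library was above the highest AAV-GFP library.

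On the lower side, Snrnp27, a small protein of the tri-snRNP, had 55.2, 57.1 and 55.1 TPM in AAV-Leptin-GFP libraries and 59.1, 63.4 and 61.2 TPM in AAV-GFP libraries (log2 fold change -0.13, limma adjusted p = 0.204). Prpf31, which bridges U4/U6 to U5, had 42.1, 42.6 and 44.0 TPM with AAV-Leptin-GFP and 46.3, 46.3 and 51.8 TPM with AAV-GFP (-0.16, limma adjusted p = 0.209). The large core proteins differed little, with log2 fold changes of 0.05 for Prpf8, which cradles the active site, and 0.05 for the helicase Snrnp200, and overlapping groups. Leaving out AAV-Leptin-GFP replicate 2 put Prpf8 below 0, and summing coding transcripts alone put Snrnp200 below 0.

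Among the 3 proteins of the minor (U12-type) spliceosome, Snrnp48, known in human cells to recognise U12-type 5′ splice sites, had 29.7, 26.5 and 24.7 TPM in AAV-Leptin-GFP and 23.4, 18.1 and 21.6 TPM in AAV-GFP libraries. The groups did not overlap and the gene did not pass (log2 fold change 0.35, limma adjusted p = 0.147). Snrnp25 and Snrnp35 were at -0.09 and -0.12. In the LSm ring none of 8 genes passed at either threshold, and the smallest p was that of Lsm3, with 29.5, 25.0 and 27.0 TPM in AAV-Leptin-GFP and 32.5, 28.5 and 31.7 TPM in AAV-GFP libraries, which overlapped (-0.18, limma adjusted p = 0.279). Lsm12, an RNA-binding adaptor of the U7 and other LSm class, had 30.8, 34.0 and 31.5 TPM with AAV-Leptin-GFP and 29.96, 28.4 and 29.5 TPM with AAV-GFP (0.13, limma adjusted p = 0.312). Prpf18, which acts in the second step, had 54.7, 56.4 and 53.3 TPM with AAV-Leptin-GFP and 56.2, 55.3 and 56.6 TPM with AAV-GFP (-0.03, limma adjusted p = 0.766), and the ubiquitin ligase Prpf19 was as level (0.01).

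Behind these gene totals, the class of transcript differed. GENCODE M21 assigns each transcript a class, among them protein-coding, retained-intron (a transcript model that keeps intron sequence) and nonsense-mediated decay (NMD, with an early stop codon). The coding transcripts of the spliceosome genes summed to 3524 ± 39.3 TPM in AAV-Leptin-GFP libraries and 3710 ± 53.8 TPM in AAV-GFP libraries. The retained-intron transcripts summed to 282, 287 and 240 TPM in AAV-Leptin-GFP libraries, against 120.3, 103 and 100.3 TPM in AAV-GFP libraries. The NMD transcripts summed to 63.9 ± 4.66 TPM with AAV-Leptin-GFP and 50.9 ± 5.08 TPM with AAV-GFP. The retained-intron sum was higher, and the coding sum lower, in each AAV-Leptin-GFP library than in any AAV-GFP library, while the totals overlapped. A lower coding level was not confined to these genes. In the fit of coding transcripts the median log2 fold change was -0.058 over the 57 genes and -0.035 over all 13033 genes. Part of the lower sum was Snrpn, whose coding transcripts averaged 1124 TPM with AAV-Leptin-GFP and 1180 TPM with AAV-GFP.

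As a share, retained-intron transcripts took 7.05%, 7.34% and 6.17% of the spliceosome TPM in AAV-Leptin-GFP libraries and 3.08%, 2.64% and 2.51% in AAV-GFP libraries. Without Snrnp70 the shares were 4.81%, 4.99% and 4.33% in AAV-Leptin-GFP and 2.36%, 2.46% and 2.23% in AAV-GFP libraries. Over the whole table they were 3.60%, 3.75% and 3.24% with AAV-Leptin-GFP and 2.50%, 2.10% and 2.27% with AAV-GFP, so the shift was not confined to spliceosome genes. It moved with the number of transcripts listed above 0, which was higher in each AAV-Leptin-GFP library than in any AAV-GFP library, and the part of that number in the result was not tested.

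Of the 58 genes, 41 have a retained-intron transcript and 21 had a mean of at least 1 TPM in that class. The summed retained-intron level was called higher for 15 of the 21 and lower for none, while 47.7% of the 3274 genes tested this way were called higher and 0.275% lower. The groups did not overlap for the same 15, beside 56.9% of all. The median log2 fold change was 1.44 over the 21 genes and 0.91 over all 3274. A gene that reaches the filter only through its AAV-Leptin-GFP libraries had to be higher there, and this holds for 6 of the 21 genes and 4 of the 15 called, Snrpa, Snrpa1, Lsm6 and Lsm7. For these 4 the levels are given as a description, with no test. Of the 15 spliceosome genes that average 1 TPM or more in AAV-GFP libraries by themselves, 11 were called higher, beside 37.0% of the 2244 such genes in the table. With so large a share of all genes called, the count is not a result about spliceosome genes in particular, and the sizes below are given gene by gene.

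Snrnp70 had the highest retained-intron level of the 21 genes with AAV-Leptin-GFP. Its retained-intron transcripts summed to 97.3, 100.3 and 77.0 TPM in AAV-Leptin-GFP libraries and 29.9, 8.30 and 12.8 TPM in AAV-GFP libraries (log2 fold change 2.54, SE 0.402, limma adjusted p = 0.0105). The lowest AAV-Leptin-GFP library was above the highest AAV-GFP library, and AAV-GFP replicate 1 was the highest of its group. The call held in each of 16 alternative settings, between 2.15 and 3.02. Retained-intron transcripts made up 60.7%, 59.2% and 58.8% of the Snrnp70 total in AAV-Leptin-GFP libraries and 37.1%, 14.9% and 21.0% in AAV-GFP libraries.

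The coding transcripts of Snrnp70 differed far less, with 59.7, 65.2 and 49.2 TPM in AAV-Leptin-GFP libraries and 49.3, 45.9 and 47.1 TPM in AAV-GFP libraries (log2 fold change 0.28, limma adjusted p = 0.181). These groups overlapped. The main coding transcript, Snrnp70-201, had 45.8, 48.6 and 42.9 TPM with AAV-Leptin-GFP and 42.5, 42.7 and 45.0 TPM with AAV-GFP. The other tested coding transcript, Snrnp70-212, which is 620 nt long, had 13.9, 16.5 and 6.37 TPM with AAV-Leptin-GFP and 6.78, 3.19 and 2.11 TPM with AAV-GFP. It was higher at an unadjusted p under 0.05 but overlapped and was not called (log2 fold change 1.42, limma adjusted p = 0.163). The rise of the gene total thus lay mostly in transcripts outside the coding class, and no spliceosome gene was called when coding transcripts alone were summed (beside 0.407% of 13033 genes called higher and 0.0307% lower), where 6 were higher and 12 lower at an unadjusted p under 0.05, against 6.45% and 12.6% of those genes.

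**Figure D3:**
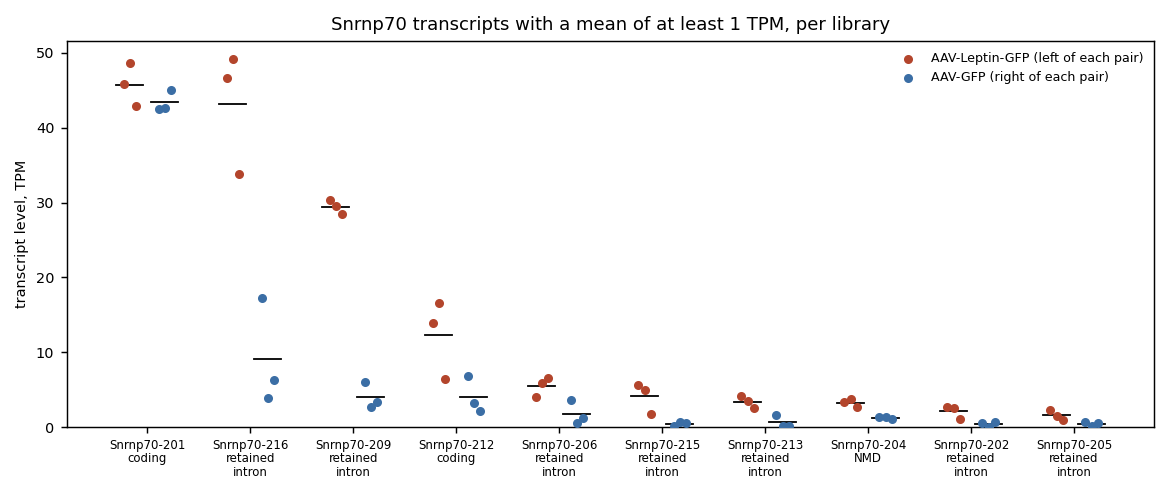
TPM (y axis, from 0) of each Snrnp70 transcript with a mean of at least 1 TPM, per library, with its class under its name; AAV-Leptin-GFP points stand left of AAV-GFP points, and lines are group means (n = 3). The coding transcript Snrnp70-201 lies between 42.5 and 48.6 TPM in both groups, while the retained-intron transcripts Snrnp70-216 and Snrnp70-209 are separated.

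Both of the most abundant retained-intron transcripts of Snrnp70 hold sequence of intron 7 of Snrnp70-201. Snrnp70-209, made of 2 exons and 618 nt long, begins inside that intron and runs through its 3′ splice site. It had 30.3, 29.5 and 28.5 TPM in AAV-Leptin-GFP libraries and 6.03, 2.74 and 3.36 TPM in AAV-GFP libraries (log2 fold change 2.65, SE 0.232, limma adjusted p = 0.0325). Of the 153 spliceosome transcripts tested singly, it alone was called, and none was called lower, beside 0.107% and 0.0238% of 33615 transcripts. Snrnp70-216, a near full-length model, had 46.7, 49.2 and 33.9 TPM with AAV-Leptin-GFP and 17.2, 3.88 and 6.29 TPM with AAV-GFP (log2 fold change 2.34, limma adjusted p = 0.0727). Its groups did not overlap. Without AAV-GFP replicate 1, Snrnp70-209 had an adjusted p of 0.0135 and 11 spliceosome transcripts were called, while without AAV-GFP replicate 2 or 3 or AAV-Leptin-GFP replicate 1, 2 or 3 its adjusted p was 0.137, 0.104, 0.111, 0.127 and 0.0934 and none was called. The other 5 tested retained-intron transcripts of Snrnp70 averaged 1.597 to 5.47 TPM with AAV-Leptin-GFP and 0.385 to 1.79 TPM with AAV-GFP, and Snrnp70-206 alone of these averaged 1 TPM or more with AAV-GFP.

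Intron 7 of Snrnp70-201 holds an alternative exon of 60 nt, at chr7:45383125-45383184, which the NMD transcript Snrnp70-204 includes. Snrnp70-204 had 3.28, 3.79 and 2.62 TPM in AAV-Leptin-GFP libraries and 1.38, 1.39 and 1.04 TPM in AAV-GFP libraries, without overlap (log2 fold change 0.89, limma adjusted p = 0.0799). The eighth exon of Snrnp70-216 starts at that alternative exon and continues through the following 2306 nt intron (intron 6 of Snrnp70-204, chr7:45380819-45383124, minus strand) into the next exon. The sequences that mark this stretch are given because Snrnp70-216 spans it and Snrnp70-209 covers its 3′ end. They run 5′ to 3′ on the minus strand of GRCm38, from the GENCODE M21 transcripts. In the alternative exon, given from its first base at chr7:45383159-45383184, capitals mark the annotated stop codon. In the splice sites, of chr7:45383095-45383144 and chr7:45380809-45380858, capitals mark the first 2 and the last 2 bases of the kept intron.
Snrnp70-204 alternative exon to its stop codon: ccaccacgcagctggcttgcagcTGA
Snrnp70-216 kept intron, 5′ splice site: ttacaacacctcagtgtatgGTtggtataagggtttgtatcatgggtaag
Snrnp70-216 kept intron, 3′ splice site: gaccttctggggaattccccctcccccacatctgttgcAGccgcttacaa
The kept intron begins with GT and ends with AG, as do 56 of the 58 annotated introns of spliceosome genes that lie wholly inside an expressed retained-intron transcript.

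Prpf39 and Prpf40b, also of the U1 class, had higher levels of retained-intron transcripts as well. Such a transcript also holds exon sequence, whose reads Salmon divides. Of the 3457 nt of Prpf39-205, 620 nt (17.9%) lie outside the exons of the most abundant coding transcript. Across the tested retained-intron transcripts this share ran from 8.8% for U2af1l4-211 to 98.1% for Prpf40b-209. Prpf39 retained-intron transcripts had 9.13, 9.13 and 6.26 TPM in AAV-Leptin-GFP libraries and 3.87, 1.40 and 2.24 TPM in AAV-GFP libraries, a share of 45.4% ± 3.40 of the gene with AAV-Leptin-GFP and 23.8% ± 8.10 with AAV-GFP (log2 fold change 1.43, SE 0.328, limma adjusted p = 0.0133). Those of Prpf40b had 8.87, 11.7 and 7.80 TPM with AAV-Leptin-GFP and 3.58, 3.35 and 1.17 TPM with AAV-GFP, a share of 23.2% ± 3.46 with AAV-Leptin-GFP and 9.83% ± 4.99 with AAV-GFP (1.56, SE 0.351, limma adjusted p = 0.0127). Neither gene's groups overlapped. Both calls were lost without AAV-Leptin-GFP replicate 2 (limma adjusted p = 0.0550 for Prpf39 and 0.0544 for Prpf40b), and that of Prpf39 also without AAV-Leptin-GFP replicate 1 (0.0524). The coding totals of both were also higher without overlap, by 0.31 for Prpf39 and 0.29 for Prpf40b, and did not pass (limma adjusted p = 0.190 and 0.207). For Prpf40b the coding transcripts differed in direction. The 780 nt Prpf40b-204 averaged 11.8 TPM with AAV-Leptin-GFP and 5.57 TPM with AAV-GFP. The longer Prpf40b-202 and Prpf40b-212 had log2 fold changes of -0.39 and -0.09. Prpf40b-201 and the 658 nt Prpf40b-205 were at 0.19 and 0.48, and none of them was called. The fourth U1 gene, Snrpa, reached the filter only through AAV-Leptin-GFP libraries, with 4.05, 1.71 and 7.52 TPM in AAV-Leptin-GFP and 0.0480, 0.215 and 0.116 TPM in AAV-GFP libraries. Its AAV-Leptin-GFP libraries were spread widely, and this class was a small part of a gene with 52.3 to 60.1 TPM in AAV-Leptin-GFP and 47.3 to 54.2 TPM in AAV-GFP libraries.

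For Sf3b1, retained-intron transcripts had 13.8, 16.7 and 14.0 TPM in AAV-Leptin-GFP libraries and 6.32, 2.64 and 4.96 TPM in AAV-GFP libraries, which did not overlap (log2 fold change 1.55, SE 0.303, limma adjusted p = 0.0106). The call held in 15 of 16 alternatives. They were 19.9% ± 1.59 of the gene with AAV-Leptin-GFP and 7.75% ± 2.65 with AAV-GFP. The main one, Sf3b1-203, at 11.8 TPM with AAV-Leptin-GFP and 3.06 TPM with AAV-GFP on average, keeps intron 4 of the 24 introns of Sf3b1-201 (chr1:55014563-55016375, minus strand, 1813 nt).

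Snrnp48 retained-intron transcripts had 8.00, 8.27 and 6.72 TPM in AAV-Leptin-GFP libraries and 2.45, 0.754 and 1.09 TPM in AAV-GFP libraries (log2 fold change 1.89, SE 0.312, limma adjusted p = 0.0105), a call kept in all 15 alternatives that could test it. Their share of the gene was 28.5% ± 2.40 with AAV-Leptin-GFP and 6.55% ± 3.40 with AAV-GFP. The coding total of Snrnp48 was 19.0 ± 2.12 TPM with AAV-Leptin-GFP and 19.3 ± 1.83 TPM with AAV-GFP. Snrnp48-204 keeps intron 6 of 8 (chr13:38217496-38220687, plus strand, 3192 nt), which begins with GC instead of GT. The splice sites of the Sf3b1 intron (chr1:55016346-55016395 and chr1:55014553-55014602) and of the Snrnp48 intron (chr13:38217476-38217525 and chr13:38220648-38220697) are shown, 5′ to 3′ on the gene's strand of GRCm38, because these introns lie in the most abundant retained-intron transcripts of the 2 genes; capitals mark the first 2 and the last 2 bases of the intron.
Sf3b1 intron 4, 5′ splice site: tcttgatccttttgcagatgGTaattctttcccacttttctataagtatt
Sf3b1 intron 4, 3′ splice site: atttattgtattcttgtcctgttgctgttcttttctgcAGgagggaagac
Snrnp48 intron 6, 5′ splice site: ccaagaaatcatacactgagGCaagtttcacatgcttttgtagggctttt
Snrnp48 intron 6, 3′ splice site: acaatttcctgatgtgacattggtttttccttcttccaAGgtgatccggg
Both introns end with AG, as in Snrnp70, and the first bases, lengths and positions in the gene differ.

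U2AF, which reads the 3′ splice site, showed retained-intron increases in both subunits. U2af2, the large subunit that binds the polypyrimidine tract, had 11.8, 10.7 and 9.42 TPM in AAV-Leptin-GFP libraries and 3.95, 2.49 and 1.22 TPM in AAV-GFP libraries (log2 fold change 1.78, limma adjusted p = 0.0106). U2af1, the small subunit, had 12.1, 8.44 and 10.7 TPM with AAV-Leptin-GFP and 4.53, 2.60 and 2.69 TPM with AAV-GFP (1.44, limma adjusted p = 0.0106). Neither overlapped. Gene totals and coding totals of both overlapped between the groups, with coding log2 fold changes of -0.05 and -0.10, so these rises stood on a small share of the gene's RNA. Retained-intron transcripts made up 12.7% ± 1.10 of U2af2 with AAV-Leptin-GFP and 3.29% ± 1.64 with AAV-GFP, and 12.1% ± 1.98 of U2af1 with AAV-Leptin-GFP and 3.89% ± 1.39 with AAV-GFP.

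Prpf38b retained-intron transcripts had 6.27, 7.42 and 5.25 TPM in AAV-Leptin-GFP libraries and 2.21, 0.690 and 0.781 TPM in AAV-GFP libraries (log2 fold change 1.77, limma adjusted p = 0.0106). Those of Prpf3 had 3.96, 5.33 and 2.87 TPM with AAV-Leptin-GFP and 2.33, 1.01 and 0.542 TPM with AAV-GFP (1.19, limma adjusted p = 0.0300). In both genes the groups did not overlap. The call of Prpf3 was lost without AAV-GFP replicate 2 or 3 (limma adjusted p = 0.0813 and 0.0921) and without AAV-Leptin-GFP replicate 1 or 2 (0.0854 and 0.1096). The coding total of Prpf3 was 7.97 ± 0.276 TPM with AAV-Leptin-GFP and 7.45 ± 0.0611 TPM with AAV-GFP. Prpf4b is different: none of its retained-intron transcripts reached the filter, and its coding total was 10.9, 11.2 and 10.0 TPM in AAV-Leptin-GFP libraries and 8.66, 6.33 and 5.99 TPM in AAV-GFP libraries, without overlap (0.57, SE 0.130, limma adjusted p = 0.103).

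Prpf19 and Sf3b2 had abundant coding RNA, and retained-intron transcripts were a small share of it. Prpf19 had 7.41, 10.4 and 6.77 TPM of them with AAV-Leptin-GFP and 2.88, 0 and 0.468 TPM with AAV-GFP (log2 fold change 2.34, limma adjusted p = 0.0111). Sf3b2, an SF3b subunit near the branch point, had 10.1, 7.57 and 4.59 TPM with AAV-Leptin-GFP and 3.50, 1.99 and 0.823 TPM with AAV-GFP (1.48, limma adjusted p = 0.0229). Neither gene's groups overlapped, and AAV-GFP replicate 1 was the highest of its group in both. The coding totals averaged 198 TPM with AAV-Leptin-GFP and 203 TPM with AAV-GFP for Prpf19, and 101 TPM with AAV-Leptin-GFP and 104 TPM with AAV-GFP for Sf3b2. Sf3b2 was not called without AAV-GFP replicate 2 or 3 or AAV-Leptin-GFP replicate 1 or 2, where the limma adjusted p was 0.0572, 0.0672, 0.0843 and 0.0760.

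Snrpa1, a protein bound to the U2 snRNA, and the LSm ring genes Lsm7 and Lsm6 averaged under 1 TPM of retained-intron transcripts in AAV-GFP libraries, as Snrpa did. Snrpa1 had 2.37, 1.81 and 1.36 TPM with AAV-Leptin-GFP and 0.727, 0.0482 and 0.425 TPM with AAV-GFP. Lsm7 had 3.34, 3.87 and 2.48 TPM with AAV-Leptin-GFP and 1.58, 0.361 and 0.767 TPM with AAV-GFP. Lsm6 had 1.83, 7.44 and 4.32 TPM with AAV-Leptin-GFP and 1.53, 0 and 0 TPM with AAV-GFP, where the nearest libraries of the 2 groups all but met. The groups of the 6 tested genes that were not called overlapped, among them Sf3b6, with 24.4 to 34.9 TPM in AAV-Leptin-GFP and 20.7 to 31.0 TPM in AAV-GFP libraries, Snrpb2, with 10.0 to 21.7 TPM in AAV-Leptin-GFP and 11.5 to 22.2 TPM in AAV-GFP libraries, and Prpf31, with 6.29 to 7.23 TPM in AAV-Leptin-GFP and 5.82 to 7.93 TPM in AAV-GFP libraries. The other 3 were U2af1l4, Lsm8 and Snrpg.

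**Figure D4:**
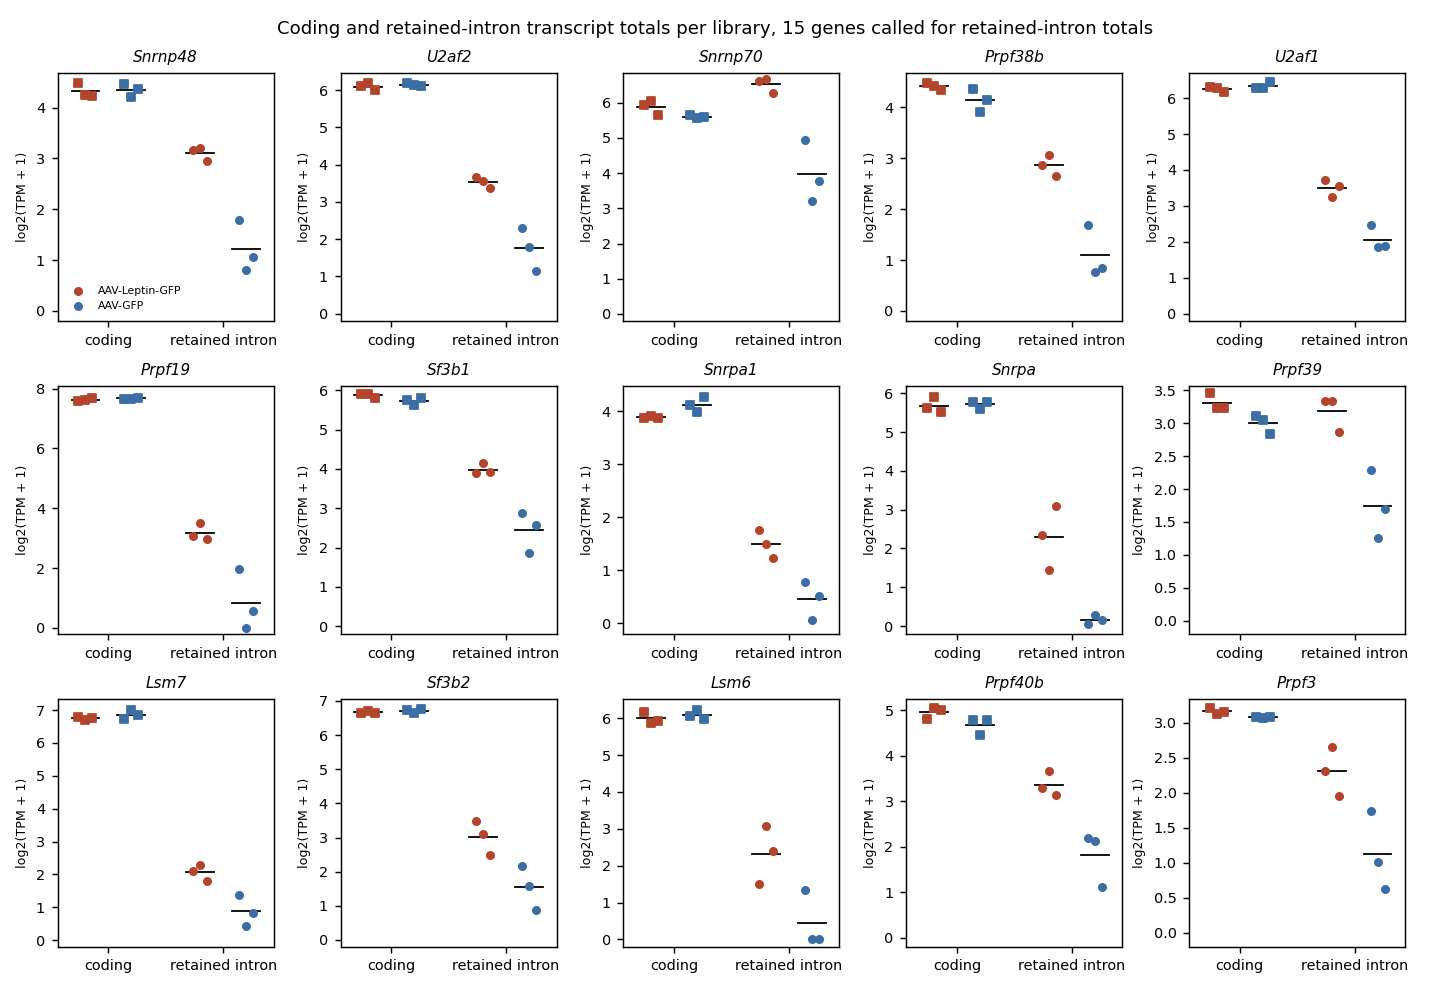
Coding (squares) and retained-intron (circles) totals as log2(TPM + 1) per library for the 15 genes called for their retained-intron total; AAV-Leptin-GFP (red) stands left of AAV-GFP (blue) in each pair, and lines are group means (n = 3). Retained-intron totals are separated in all 15 panels, while coding totals of most lie at nearly the same height. The genes were picked by that call in the same libraries, so the separation is a description. Snrpa, Snrpa1, Lsm6 and Lsm7 reached the filter only through AAV-Leptin-GFP.

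When the retained-intron level was set against the coding level of the same gene, the same 15 of 21 genes were called higher and none lower, beside 46.7% and 0.313% of 3197 genes. These include the 4 genes that reach the filter only through AAV-Leptin-GFP. The median was 1.31 over the 21 genes and 0.93 over all. Among the other 11 the log2 difference was largest for Prpf19, at 2.38 (limma adjusted p = 0.0110), and was 2.26 for Snrnp70 (SE 0.399, limma adjusted p = 0.00995), 1.91 for Snrnp48 (0.00995), 1.83 for U2af2 (0.00995) and 1.40 for Sf3b1 (0.0111). Under quantile normalization of each class, which took the median of all genes for the retained-intron total to -0.0026 and left that of the 21 genes at 0.49, 2 genes were called higher and 1 lower for the retained-intron total and none relative to coding. Leaving out 1 library left 8 to 15 calls of the retained-intron total, with 8 without AAV-Leptin-GFP replicate 2, and 9 to 15 relative to coding, with 9 without that library or AAV-GFP replicate 3. These counts include the 4 genes that reach the filter only through AAV-Leptin-GFP. For the retained-intron total, the other 11 called genes kept their sign and an unadjusted limma p under 0.05 in each of these fits. In the main fit, 43.4% of the 2244 genes averaging 1 TPM or more with AAV-GFP were higher at that level. The 11 were picked by their call in the same libraries, so this is a description.

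Seen transcript by transcript, 28 of 38 tested retained-intron transcripts of spliceosome genes were higher at an unadjusted p under 0.05 and none was lower, beside 50.0% and 1.34% of the 4245 retained-intron transcripts tested. Of the 38, 22 averaged under 1 TPM in AAV-GFP libraries and so were tested only through the group where they were high. Of the other 16, 9 were higher, beside 30.4% of the 2398 such transcripts in the table. Of 92 coding transcripts, 6 were higher and 10 lower, with a median of -0.05. Of 12 NMD transcripts, 2 were higher, those of Snrnp70 and U2af1l4, and none was lower. The shares among all coding and all NMD transcripts of the table were not computed, so the counts of these 2 classes are a description. Over all classes 36 were higher and 10 lower (23.5% and 6.54% of 153), beside 12.3% and 6.01% of all transcripts. Of the 36, 28 were retained-intron transcripts. That class held 38 of the 153 transcripts here and 4245 of all 33615, so these shares come from unlike mixes of classes and are not a result about spliceosome genes. These transcripts share genes and libraries, so they are not independent.

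Transcript length went with the direction of the gene totals. Across the 57 genes, the length of the most abundant coding transcript and the log2 fold change had a Spearman correlation of 0.584, and a Pearson correlation of 0.389 with length on a log scale. The points share the same 6 libraries, and the correlation is a description across genes. Of the 19 shortest genes, from 442 to 1055 nt, 15 were below 0, among them Snrpd3 (442 nt), Snrpd1 (858 nt) and Snrpf (861 nt), and 4 were above, U2af1 (532 nt, 0.03), Lsm6 (541 nt, 0.01), Prpf40b (780 nt, 0.54) and Lsm2 (840 nt, 0.13). Of the 19 longest, from 2566 to 7844 nt, 17 were above 0. Their median was 0.05, and long genes differed widely, with 0.47 for Prpf4b (7844 nt) and 0.34 for Sf3b1 (6195 nt) but 0.05 for Prpf8 (7442 nt), 0.05 for Snrnp200 (6745 nt) and 0.02 for Lsm11 (6453 nt). The length of Prpf40b rests on a transcript that is most abundant over all libraries; in AAV-GFP libraries the most abundant coding transcript is 3129 nt long. With lengths taken from AAV-GFP libraries, a choice made after seeing the data that altered only Prpf40b, the correlations were 0.647 (Spearman) and 0.448 (Pearson). The relation was not computed over all genes of the table, so it is not given as particular to spliceosome genes. Length was not part of any fit, and its part in the fold changes was not tested.

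**Figure D5:**
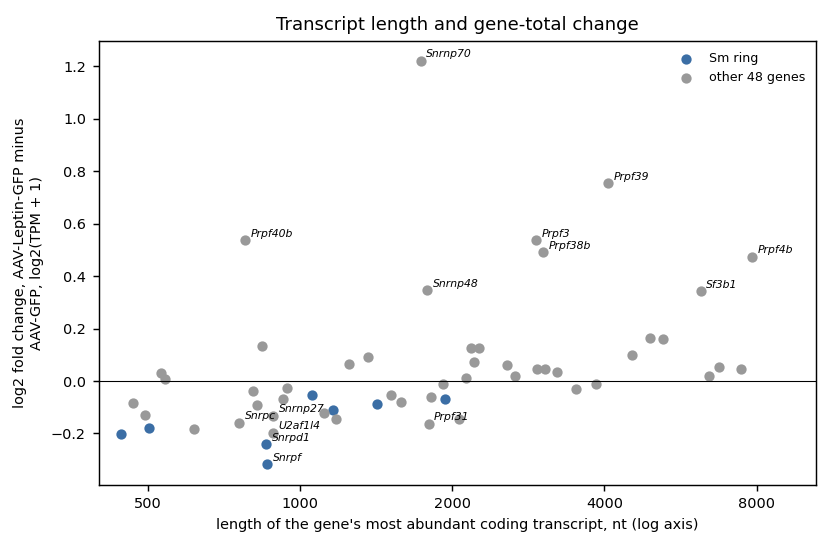
Log2 fold change of the gene total (y axis) against the length of the gene's most abundant coding transcript in nt (x axis, log scale) for 56 of the 57 tested genes, Sm ring genes in blue. The 8 Sm genes lie below 0 (7 of 8 under quantile normalization) at lengths of 442 to 1932 nt, 17 of the 19 longest genes lie above 0, and Snrnp70 (1735 nt) stands highest.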

How the data were processed

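RNA of neuron-enriched DRG cells was measured by stranded mRNA sequencing in 6 libraries, 3 per group. The authors deposited TPM for each transcript. The submitters' processing notes name Salmon 1.6.0, DESeq2 1.34.0, Trim Galore 0.6.6 and FastQC 0.11.9, with the builds GRCm38 and mm10 and no role or order, and no annotation release is given in the sources used here. TPM keeps no depth, so no count test, counting interval or detection limit is given, and Salmon divides reads shared by paralogs, overlapping genes and transcripts of 1 gene. Transcript classes, coordinates and sequences come from GENCODE M21 on GRCm38, matched by identifier without version (97.4% of 140789 transcripts, 353 of 355 of the spliceosome genes).

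TPM were summed per gene, per gene and class, or kept per transcript. Each whole table was fitted with limma 3.58.1 (R 4.3.3) on log2(TPM + 1) (trend, two-sided, no covariates, features with a mean of at least 1 TPM), and Benjamini-Hochberg adjustment ran over all features tested, with calls at 0.05. Fold changes on this scale understate changes of low values. The fits were tested on simulated data. Values per library are given for genes called in any fit, at an unadjusted p under 0.05 for the gene total, or with the smallest p of their role. From each other list, called genes or else the one with the smallest p are named. The values of 1 U1 gene are not reported here, though it counts in every total. Snrpn, Snrpg and other examples within a role were added after their values were seen. The members and lists were chosen with earlier results of these data known. Alternatives were other pseudocounts, filters, scalings, limma settings, a replicate block, coding transcripts only and leaving out each library. Tables were handled with pandas 2.3.3 and R's data.table (version 1.17.8) and drawn in matplotlib 3.10.9 on Python 3.11.15.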

Additional observations from a re-analysis of the deposited data

How the results depend on the processing

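The main counts, by gene total, were 2 higher and 1 lower. The higher count was 0 with no filter, without the limma trend and with coding transcripts only, 4 with median-ratio scaling and 6 with array weights. The lower count was 0 with no filter, quantile normalization, mitochondrially encoded genes removed, no trend or coding transcripts only, and 2 with array weights. Without single libraries the gene counts were 0 to 4 higher and 0 lower. The median of 0.0071 became -0.029 under quantile normalization, 0.041 without mitochondrially encoded genes, -0.058 with coding transcripts only, and -0.030 to 0.023 without single libraries. Retained-intron calls (15 higher, 0 lower) became 6 at a mean of at least 5 TPM, where 10 genes were tested, 2 higher and 1 lower under quantile normalization, which took the median of all 3274 genes to -0.0026 and left that of the 21 genes at 0.49, and 8 to 15 without single libraries. Relative to coding they became 6, 0 and 9 to 15. Transcript calls (1 higher, 0 lower) became 0 with a pseudocount of 0.1, no filter or a 5 TPM filter, 3 higher and 1 lower with array weights, and 0 to 11 without single libraries. Same-numbered libraries showed no shared deviation (correlations 0.034, -0.070 and -0.024). With 3 libraries per group this cannot exclude that they were handled in pairs, and the sources used here state no pairing. With a replicate block the gene calls were 1 higher and 0 lower and transcript calls 0. The sign of the gene total turned for 4 of the 57 genes without mitochondrially encoded genes, among them Prpf18 (0.0020), and for 4 under quantile normalization, 3 with array weights, 12 with coding transcripts only and 16 when single libraries were left out. Those that turned outside the coding-only sum lay within 0.131 of 0. With coding transcripts only the genes with values per library that turned were Lsm6 (-0.084), Prpf19 (-0.038), Sf3b2 (-0.037), Snrnp48 (-0.024), Snrpa (-0.031), Snrpa1 (-0.23), U2af1 (-0.098) and U2af2 (-0.047). Without single libraries such genes were Lsm6 (range -0.052 to 0.067), Prpf19 (-0.013 to 0.037), Snrpa1 (-0.022 to 0.14) and U2af1 (-0.0055 to 0.086). The cause of these changes was not tested.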

Other observations

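Other genes of the pathway, from lists of proteins that work beside the core snRNPs, were read in the same fit, where 1.54% of all genes were called higher and 0.0662% lower. Luc7l2, a U1-associated protein that affects 5′ splice site choice, was 1 of 14 U1- and U2-associated genes called. It had 96.4, 101 and 91.0 TPM in AAV-Leptin-GFP libraries and 70.2, 59.7 and 66.6 TPM in AAV-GFP libraries, without overlap (log2 fold change 0.55, SE 0.0719, limma adjusted p = 0.0238). Acin1, an RNA-binding protein that joins the exon junction complex, was 1 of 9 genes called in that list, with 77.5, 84.9 and 69.7 TPM in AAV-Leptin-GFP and 56.4, 43.7 and 47.9 TPM in AAV-GFP libraries (0.64, SE 0.107, limma adjusted p = 0.0405). None of the other 6 lists had a called gene. The retained-intron totals of both genes were called higher too (limma adjusted p = 0.0105 and 0.0107), averaging 43.0 TPM with AAV-Leptin-GFP and 16.6 TPM with AAV-GFP for Luc7l2, and 17.9 TPM with AAV-Leptin-GFP and 4.65 TPM with AAV-GFP for Acin1.

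Of 15 genes that assemble snRNPs (the SMN complex, PRMT5 and the import factors), 12 were below 0, beside 50.1% of all genes, and the median was -0.04. None was called, and 2 were lower at an unadjusted limma p under 0.05, beside 8.19% of all genes. Prmt5, which methylates Sm proteins, had 38.2, 36.1 and 35.7 TPM in AAV-Leptin-GFP and 40.3, 43.3 and 41.8 TPM in AAV-GFP libraries, without overlap (log2 fold change -0.18, limma adjusted p = 0.137). Snu13, which binds U4 snRNA, had 141, 136 and 139 TPM with AAV-Leptin-GFP and 167, 157 and 158 TPM with AAV-GFP (-0.21, limma adjusted p = 0.0626). Rnpc3, a protein of the minor spliceosome, had 27.3, 25.2 and 20.1 TPM with AAV-Leptin-GFP and 14.2, 5.62 and 9.10 TPM with AAV-GFP (1.31, limma adjusted p = 0.0687). The smallest p of the remaining lists belonged to Gcfc2 (0.56), Edc4 (0.36) and Rbm22 (0.29), with limma adjusted p of 0.133, 0.182 and 0.179. For retained-intron totals, 47.7% of all genes tested were called higher and 0.275% lower. Called higher were 7 of 11 U1- and U2-associated, 4 of 6 tri-snRNP, 4 of 5 Prp19-complex and 3 of 4 exon junction genes. The counts were 2 of 3 for minor spliceosome, 1 of 3 for assembly, 1 of 1 for later-step and 0 of 1 for decapping genes. Genes under 1 TPM with AAV-GFP, such as Bcas2 (0.683 TPM), had to be higher, so these counts are a description. In the tri-snRNP list 1 gene was called lower, and none in the others. Txnl4a, of the U5 snRNP, averaged 1.55 TPM with AAV-Leptin-GFP and 6.48 TPM with AAV-GFP (-2.02, limma adjusted p = 0.0410). Zrsr2 (-0.14) and Isy1 (-0.0024) were also below 0 and did not pass.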
